A study of Mus musculus with 11 samples.

Results

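The genes described here are the T helper cytokines and Cd4 on an inflammation panel that was measured in the corneas of mice with experimental dry eye. They were chosen by name, with no use of their values, and are 10 of the 248 genes in the tables, which spell them in capitals and give a gene ID for each. They are IFNG (15978), IL12A (16159) and IL12B (16160), IL23A (83430) and IL17A (16171), IL4 (16189), IL13 (16163) and IL5 (16191), IL10 (16153) and CD4 (12504). All 10 were found in both tables. The panel was the NanoString nCounter mouse Inflammation panel, in which a colour-coded probe binds each transcript and single molecules are counted without amplification. RNA came from the cornea, labelled as corneal epithelium, of female C57BL/6 mice, for which the labels name no transgene or deletion. All mice were kept for 5 days under desiccating stress, a drafty room of low humidity together with scopolamine in the drinking water to suppress tears, so no unstressed cornea is among the samples. During those days the eyes received drops 2 times a day with vehicle (3 samples), with pan at 10 µM, a small-molecule agonist of all Trk neurotrophin receptors (4 samples), or with C1 at 10 µM, a small-molecule agonist of the neurotrophin receptor TrkC (4 samples). The labels do not settle the age of the mice. One label has 3 months throughout, while another has 22 to 24 months for every C1 sample and for pan replicate 4 but 2 to 3 months for the rest.

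CD4 is the co-receptor that marks T helper cells, which in experimental dry eye enter the ocular surface. Th1 cells are driven by IL-12, a dimer of the p35 (Il12a) and p40 (Il12b) chains, and secrete interferon gamma (Ifng), which is known in this model for loss of conjunctival goblet cells and death of surface epithelium. Th17 cells are sustained by IL-23, a dimer of p19 (Il23a) and the same p40 chain, and secrete IL-17A (Il17a), known for breakdown of the corneal barrier. Th2 cells secrete IL-4, IL-13 and IL-5, of which IL-13 favours goblet cells and IL-5 acts on eosinophils. IL-10 (Il10) dampens inflammation and is made by regulatory T cells and by myeloid cells. In bulk RNA of a cornea, fewer T helper cells and less cytokine RNA in each cell cannot be told apart.

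The tables held log2 normalized counts, and every value was a whole multiple of one step per sample, which was taken as the value of 1 probe count. Total probe counts over the panel were 91955 to 133098 in the vehicle samples, 64156 to 101351 in pan replicates 1 to 3, 646446 in pan replicate 4 and 165828 to 525997 in the C1 samples. One probe count was therefore worth 1.64 to 2.30 normalized counts in vehicle, 2.44 to 3.25 in pan replicates 1 to 3, 0.315 in pan replicate 4 and 0.432 to 1.38 in C1. No value of 0 counts occurred in any sample, so a value of 1 count may also stand for 0. A count of 0 allows up to 3 counts, which were 0.944 to 9.74 normalized counts depending on the sample. All intervals on counts given below cover counting error only.

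No negative control probe was among the rows, so background was read from 9 reference genes whose transcripts a cornea should lack. They include C8a, C8b, C9, Crp, Kng1 and Mbl2, which are made by the liver, Fxyd2 of the kidney, and H2-Ea-ps, which C57BL/6 mice do not express. A gene counted as above background in a sample when its normalized count exceeded the mean of these genes plus 2 SD. The threshold was 14.5 to 28.6 normalized counts in vehicle, 10.8 to 17.3 in pan and 16.5 to 21.1 in C1. Over all 248 genes, 63.6% of values were above it. Of the 99 values of the reference genes 2 were, but these genes set the threshold, so few of them can exceed it.

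The T helper transcripts were at background. Of their 110 values, 5 were above the threshold, and 0 of the 10 genes was above it in every sample of any group. In vehicle, 1 gene was above background in at least 1 sample (Ifng, in replicate 3). In pan there were 3 such genes (Il12b and Il17a in replicate 2, and Il23a in replicates 2 and 3), and in C1 there were 0. These numbers do not compare detection between groups, since the thresholds differed. They were 10.8 and 12.7 normalized counts in pan replicates 2 and 3 but 16.5 to 21.1 in C1. Il12a, Il13, Il4, Il5, Il10 and Cd4 were above background in 0 of 11 samples. The 10 genes held 0.0187% to 0.0468% of the probe counts of a sample. At most 3 counts were recorded for 44 of their 110 values, and exactly 1 count for 25.

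**Figure D1:**
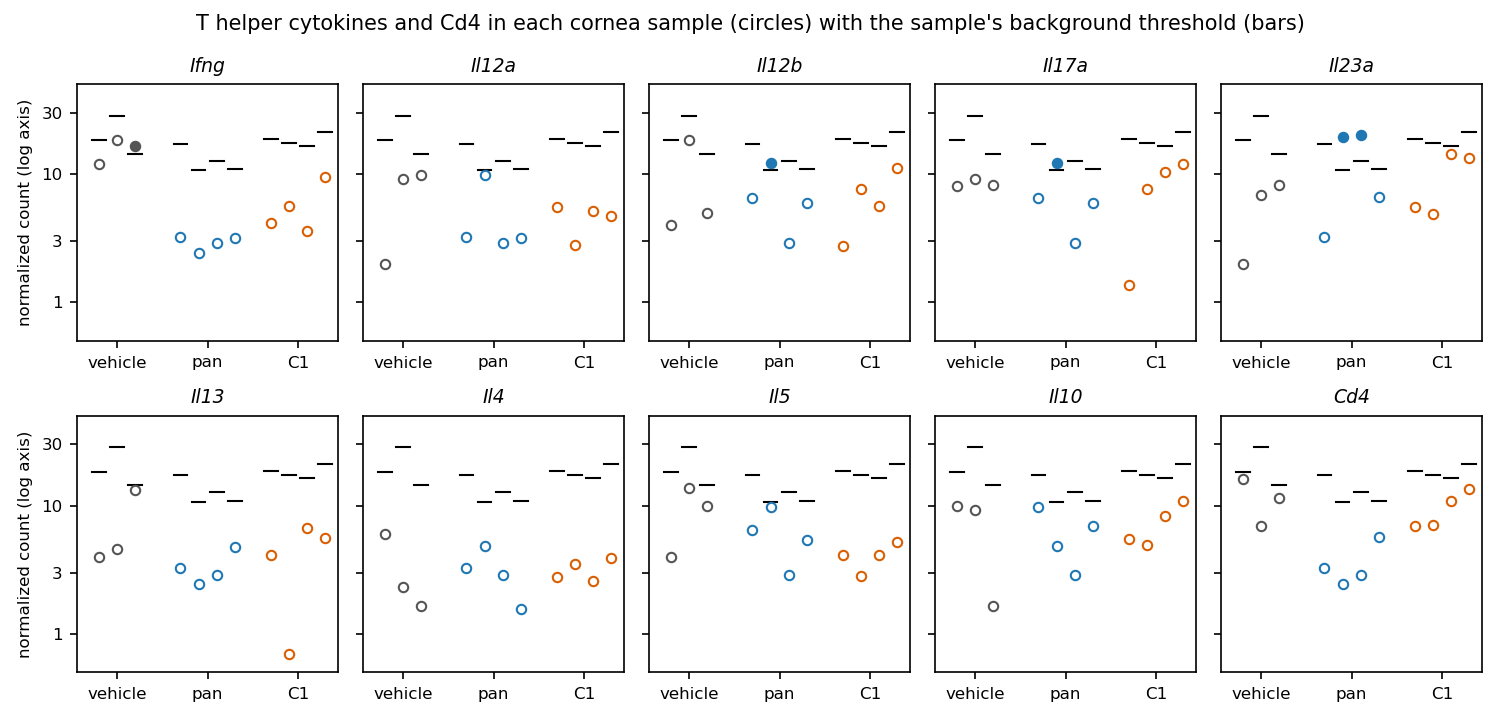
Normalized count (log axis) of each T helper cytokine and Cd4 in the 3 vehicle, 4 pan and 4 C1 samples, replicates in order from left to right within a group. Each circle is 1 sample, filled where it exceeds that sample's background threshold (black bar): 5 of 110 circles are filled, 1 in vehicle, 4 in pan and 0 in C1.

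Ifng, the signature cytokine of Th1 cells, had lower values after pan, as did 8 of the 9 reference genes. Only 1 of its 11 values was above background. It was measured at 12.0, 18.4 and 16.4 normalized counts in the vehicle samples, at 3.25, 2.44, 2.90 and 3.15 in pan and at 4.13, 5.61, 3.61 and 9.50 in C1. All pan and all C1 samples were below all vehicle samples, and all C1 samples were above all pan samples. The means were 15.6 ± 3.29 in vehicle (SD, n = 3), 2.93 ± 0.359 in pan (SD, n = 4) and 5.71 ± 2.67 in C1 (SD, n = 4), and both gaps in this order exceeded the larger SD. In pan replicates 1 to 3 each value was 1 probe count, so the pan SD largely reflects what 1 count was worth in each sample.

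In pan against vehicle the log2 difference of Ifng was -2.40 (SE 0.24, limma adjusted p = 0.00246 over 248 genes). It was the smallest p of the table, and Ifng was 1 of the 3 genes called lower (1.21% of 248). It was the only T helper gene called, in either direction, where 2.02% of all genes were called. The two-sided exact permutation test gave p = 0.0571, the smallest that 3 against 4 samples allow. The difference kept an adjusted p under 0.05 without any one of the 7 samples (-2.58 to -2.27). Over all alternatives it ran from -2.58 to -0.98, and its SE rests on pan values of 1 probe count in replicates 1 to 3. Without pan replicate 4, which leaves the samples of the younger second age label, the difference was -2.44 (limma adjusted p = 0.00906). The pan samples left there had 1 probe count each, so this fit cannot show whether the difference holds within that label.

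The probe counts behind this difference were few. Vehicle samples had 6, 8 and 10 counts of Ifng and pan samples 1, 1, 1 and 10. At the mean level of vehicle, the pan samples would have held 4.82, 6.41, 5.39 and 49.7 counts. Pooled over samples and set against what 1 count was worth in each, the 13 counts in pan against 24 in vehicle gave a ratio of 0.197 (95% interval 0.0921 to 0.402).

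The reference genes moved in the same direction. In the 4 pan samples Mbl2, a liver lectin, had the same probe counts as Ifng, 1, 1, 1 and 10, against 3, 5 and 6 in vehicle. The other 2 of the 3 genes called lower in pan were Mbl2 (log2 difference -1.59, SE 0.28, limma adjusted p = 0.0305) and H2-Ea-ps (-1.77, SE 0.34, limma adjusted p = 0.0401), both from the reference list. The summed probe counts of the 9 reference genes were 47, 52 and 53 in vehicle and 21, 20 and 16 in pan replicates 1 to 3. Of the 9, 8 had a negative difference, with a median of -0.71, beside -0.47 for the T helper genes and -0.20 for all genes. The part of this lower background in the Ifng difference was not tested.

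Set against the reference genes of the same sample, Ifng was 1.15, 1.38 and 1.70 times their mean in vehicle. The ratio was 0.429, 0.450, 0.563 and 0.457 in pan and 0.551, 0.661, 0.382 and 0.767 in C1. In all 8 treated samples, then, Ifng lay below the mean of genes that a cornea should lack. With each sample centred on the reference genes, the difference of pan from vehicle was -1.51 (limma adjusted p = 0.0370). With their mean subtracted and values floored at 1 normalized count, all pan values lay at the floor and the call was lost (-1.92, SE 0.51, limma adjusted p = 0.367).

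**Figure D2:**
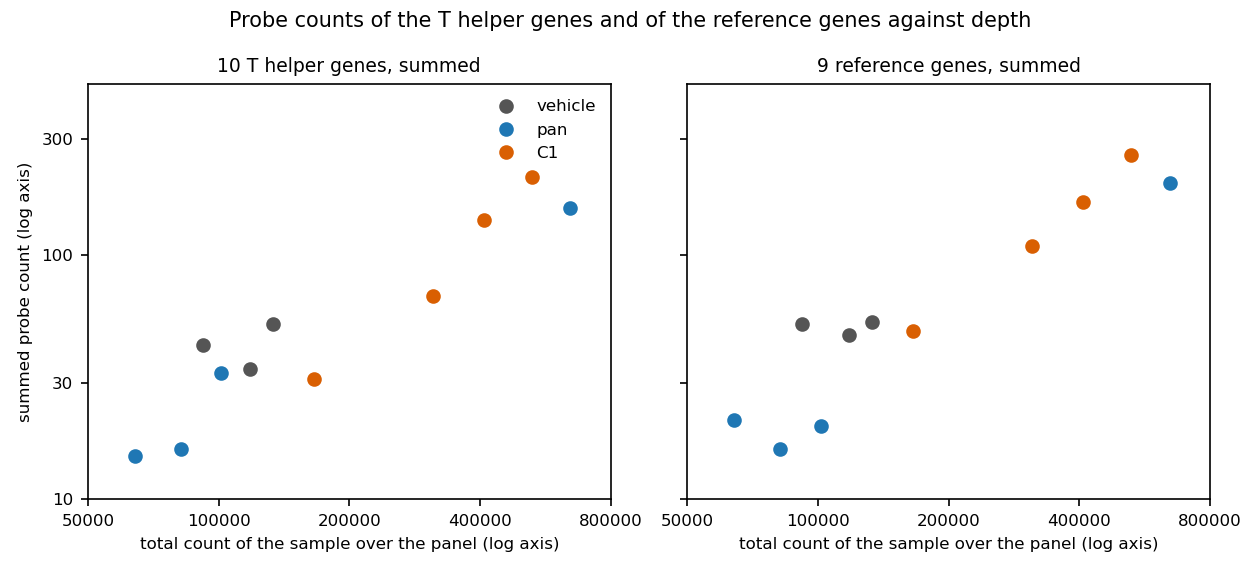
Summed probe counts (log axis) of the 10 T helper genes (left) and the 9 reference genes (right) against the total probe count of the sample (log axis), 1 point per sample. In both panels the deeply counted pan replicate 4 and C1 replicates 2 to 4 are highest, and pan replicates 1 to 3 have 16 to 21 reference counts where the vehicle samples have 47 to 53.

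In C1 against vehicle the log2 difference of Ifng was -1.54 (SE 0.36, 95% interval -2.38 to -0.69, limma adjusted p = 0.211), so it was not called. The exact permutation p was again 0.0571. No gene of the table was called in this comparison by limma (0.0% of 248 genes), while 26 genes, 10.5%, had an unadjusted p under 0.05, Ifng and Il5 among them. All C1 samples lay below all vehicle samples for 10 genes (4.03%), of which Ifng was the 1 T helper gene. Treatment, the second age label and the higher total counts of C1 cannot be told apart here. In C1 against pan, Ifng differed by 0.86 (SE 0.31, limma adjusted p = 0.260, exact permutation p = 0.0286, the smallest that 4 against 4 samples allow).

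The chains of IL-12 stayed below the threshold except in 1 sample. Il12a, the p35 chain, was at 2.00, 9.22 and 9.87 normalized counts in vehicle, at 3.25, 9.76, 2.90 and 3.15 in pan and at 5.50, 2.80, 5.16 and 4.75 in C1. Il12b, the p40 chain that IL-12 and IL-23 share, was at 4.004, 18.4 and 4.93 in vehicle, at 6.49, 12.2, 2.90 and 5.98 in pan and at 2.75, 7.71, 5.68 and 11.2 in C1. Both genes overlapped between all pairs of groups. The single value above background was Il12b in pan replicate 2, from 5 probe counts against a threshold of 10.8 normalized counts. Il12b in vehicle replicate 2 stood higher, at 18.4, and still below its own sample's threshold of 28.6. The log2 difference of Il12a was -0.46 (95% interval -1.99 to 1.07) after pan and -0.36 (-1.76 to 1.04) after C1. That of Il12b was -0.23 (-1.70 to 1.24) after pan and -0.24 (-1.81 to 1.34) after C1, and differences within these intervals were not detectable at this depth.

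Of the Th17 axis, Il23a had the 2 values that stood farthest above the threshold. It was at 2.00, 6.91 and 8.22 normalized counts in vehicle, at 3.25, 19.5, 20.3 and 6.61 in pan and at 5.50, 4.91, 14.4 and 13.4 in C1. Pan replicates 2 and 3 were above background, at 8 and 7 probe counts, while pan replicates 1 and 4 were within the vehicle range. The means were 5.71 ± 3.28 in vehicle (SD, n = 3), 12.4 ± 8.76 in pan (SD, n = 4) and 9.56 ± 5.06 in C1 (SD, n = 4), and neither gap exceeded the larger SD. The log2 difference was 0.99 after pan (SE 0.76, 95% interval -0.78 to 2.75, limma adjusted p = 0.595) and 0.81 after C1 (SE 0.63, -0.68 to 2.30, limma adjusted p = 0.728).

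Il17a, the cytokine that names the Th17 cell, was at 8.01, 9.22 and 8.22 normalized counts in vehicle, at 6.49, 12.2, 2.90 and 5.98 in pan and at 1.38, 7.71, 10.3 and 12.1 in C1. The groups overlapped, and only pan replicate 2 was above background. The log2 difference was -0.48 (95% interval -1.50 to 0.55) after pan and -0.49 (-2.24 to 1.26) after C1.

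The Th2 cytokines were above background in 0 of 11 samples. Il4, Il13 and Il5 lie close together in the mouse genome: in the RefSeq gene table (GRCm38.p6) Il4 and Il13 are neighbours, and Rad50 and a pseudogene separate Il13 from Il5. Il4, which drives Th2 differentiation, had 3, 1 and 1 probe counts in vehicle, 1, 2, 1 and 5 in pan and 2, 5, 5 and 9 in C1. These were 6.01, 2.30 and 1.64 normalized counts in vehicle, 3.25, 4.88, 2.90 and 1.57 in pan and 2.75, 3.51, 2.58 and 3.89 in C1. All vehicle values of Il4 were at or below the 3 counts that a count of 0 allows. Its pooled count ratio was 0.654 (95% interval 0.197 to 2.49) for pan and 1.01 (0.371 to 3.43) for C1, so its direction was not measurable at this depth.

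Il13, which favours goblet cells, was at 4.004, 4.61 and 13.2 normalized counts in vehicle, at 3.25, 2.44, 2.90 and 4.72 in pan and at 4.13, 0.701, 6.71 and 5.62 in C1. Vehicle replicate 3 was the highest, and the groups overlapped. The log2 difference was -0.95 after pan (SE 0.45, 95% interval -1.99 to 0.09, limma adjusted p = 0.460) and -0.95 after C1 (SE 0.85, -2.98 to 1.08, limma adjusted p = 0.777). Il5, the eosinophil cytokine, was at 4.004, 13.8 and 9.87 in vehicle, at 6.49, 9.76, 2.90 and 5.35 in pan and at 4.13, 2.80, 4.13 and 5.18 in C1. Its log2 difference was -0.55 after pan (95% interval -1.77 to 0.68) and -1.04 after C1 (SE 0.44, -2.08 to -0.01, limma adjusted p = 0.452). Vehicle replicate 1 overlapped the C1 samples, and the exact permutation p was 0.229.

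Il10, the regulatory cytokine, was at 10.0, 9.22 and 1.64 normalized counts in vehicle, at 9.74, 4.88, 2.90 and 6.92 in pan and at 5.50, 4.91, 8.26 and 10.8 in C1. All groups overlapped. The log2 difference was 0.06 (95% interval -1.54 to 1.66) after pan and 0.39 (-1.20 to 1.98) after C1.

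Cd4, the receptor of the T helper cell itself, was at 16.0, 6.91 and 11.5 normalized counts in vehicle, at 3.25, 2.44, 2.90 and 5.66 in pan and at 6.88, 7.01, 10.8 and 13.4 in C1. The pan samples lay below all vehicle and all C1 samples, while C1 and vehicle overlapped. The means were 11.5 ± 4.55 in vehicle (SD, n = 3), 3.56 ± 1.44 in pan (SD, n = 4) and 9.53 ± 3.16 in C1 (SD, n = 4), and the gap between C1 and pan exceeded the larger SD while that between vehicle and C1 did not.

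In pan against vehicle the log2 difference of Cd4 was -1.68 (SE 0.39, 95% interval -2.58 to -0.78, limma adjusted p = 0.0912). It ranked 7 by p of 248 genes and was not called, although 4 of the other fits called it (adjusted p = 0.0173 to 0.0477 by limma). It stayed uncalled in all 7 fits that left out 1 sample (limma adjusted p = 0.0610 to 0.219). Over all fits its limma adjusted p reached 0.729. Cd4 and Ifng were the 2 T helper genes with all pan samples below all vehicle samples, a pattern of 21 genes (8.47% of 248) and of 4 of the 9 reference genes (C9, H2-Ea-ps, Kng1 and Mbl2). Pan replicates 1 to 3 had 1 probe count of Cd4 each and pan replicate 4 had 18, against 8, 3 and 7 in vehicle, and the pooled ratio was 0.424 (95% interval 0.215 to 0.844). With each sample centred on the reference genes the difference was -0.79 (limma adjusted p = 0.196). Relative to the mean of the reference genes, Cd4 was 1.53, 0.519 and 1.19 times in vehicle, 0.429 to 0.822 times in pan and 0.826 to 1.15 times in C1.

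After C1, the log2 difference of Cd4 from vehicle was -0.25 (SE 0.36, 95% interval -1.11 to 0.62, limma adjusted p = 0.845).

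The compounds were compared at the same dose and time in 1 pair, C1 against pan, with p adjusted over 248 genes. They differ in receptor selectivity, but the second age label and the total counts also set C1 apart from pan replicates 1 to 3. Compound, age label and depth therefore cannot be told apart here. No T helper gene was called (1 gene of the table was, 0.403%). Cd4 had the largest difference of the 10, at 1.44 (SE 0.33, 95% interval 0.69 to 2.19, limma adjusted p = 0.157, exact permutation p = 0.0286). Cd4 and Ifng were the 2 T helper genes with all C1 samples above all pan samples, where 19 genes (7.66%) had this pattern. All 9 reference genes were also higher in C1 than in pan, with a median of 0.62 beside 0.23 for all genes and 0.05 for the T helper genes. With each sample centred on the reference genes, the difference of Cd4 was 0.84 (limma adjusted p = 0.347) and that of Ifng 0.27 (limma adjusted p = 0.731). The other 8 genes differed by -0.50 (Il5, 95% interval -1.34 to 0.34) to 0.33 (Il10, -0.59 to 1.26). Their intervals reached as far as -1.64 and 1.59, so equal levels after the 2 compounds were not shown either.

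**Figure D3:**
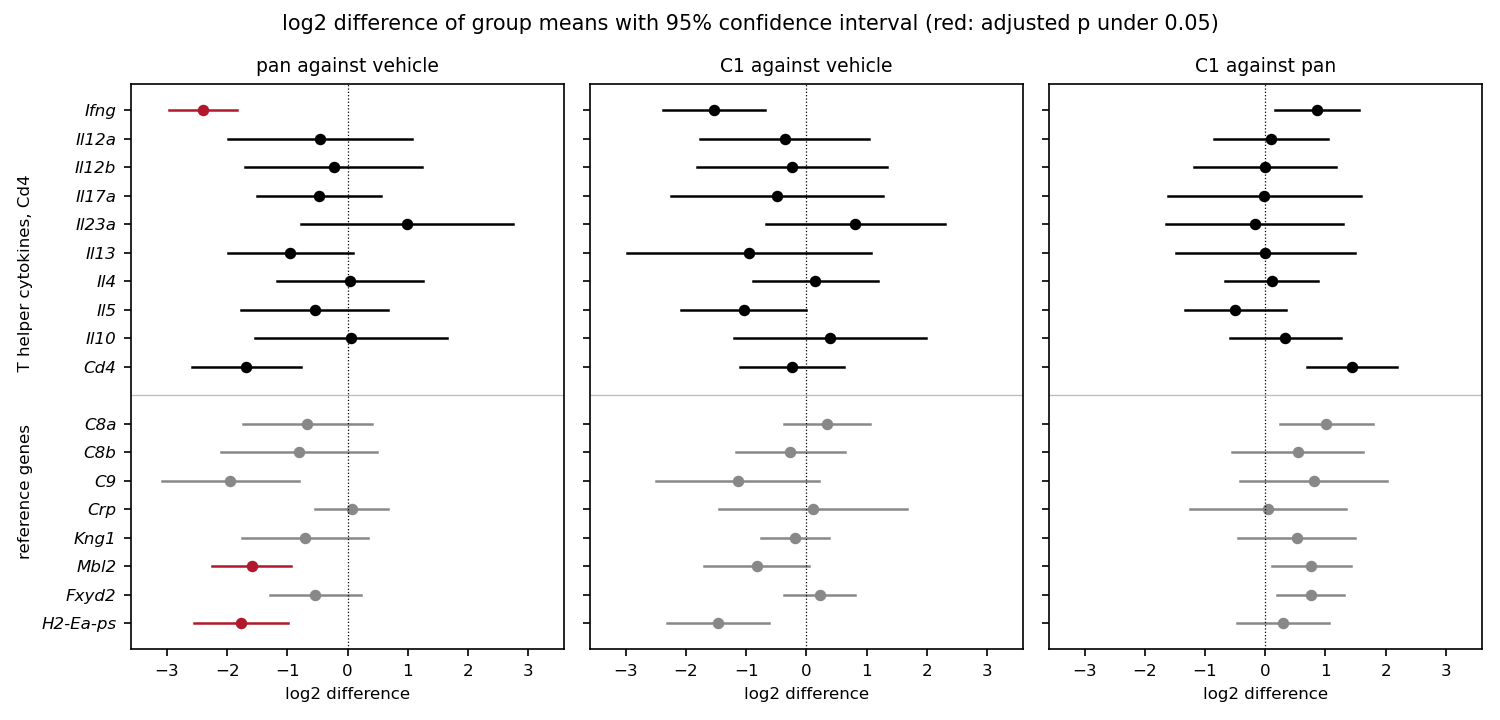
Difference of group means on the log2 scale (points) with 95% confidence interval from limma (lines) for the 10 T helper genes and 8 of the 9 reference genes in the 3 comparisons. Red marks an adjusted p under 0.05: Ifng is the only T helper gene in red, in pan against vehicle, beside the reference genes Mbl2 and H2-Ea-ps.

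Across the 10 genes, 20 pairs of neighbouring group means were ordered, and 3 gaps exceeded the larger SD of the pair: both of Ifng and that between C1 and pan for Cd4. The median difference of the 10 genes from vehicle was -0.47 after pan and -0.30 after C1, and the former turned to 0.43 with each sample centred on the reference genes. Since the difference of all genes moved with that centring too, from a median of -0.20 to 0.70, and calls in pan went from 3 lower and 2 higher to 1 lower and 7 higher, no direction is given for the genes as a group. Comparisons with vehicle share the same 3 vehicle samples. No gene of the 10 was above background in at least 9 samples, so no gene of like pattern was sought.

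Other genes of these pathways were well above background in the same samples. Of 11 Th1-associated genes, 4 were above it in every sample of each group. Among them were Irf1, a transcription factor of interferon signalling, Il18, which promotes Ifng production and is made by epithelium, and Tnf, which many cells make. Irf1 was at 6149 to 7195 normalized counts in vehicle, 5054 to 6669 in pan and 6215 to 7203 in C1. By limma at an adjusted p under 0.05, 0 of the 11 genes were called in either comparison with vehicle, and 1 (Cxcl9) had an unadjusted p under 0.05 in each. Of all genes, 2.02% were called in pan and 0.0% in C1, and 12.5% and 10.5% had such an unadjusted p.

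Tnf was at 54.1, 62.2 and 31.2 normalized counts in vehicle, at 42.2, 193, 55.1 and 284 in pan and at 59.2, 89.7, 114 and 302 in C1. Both treated groups overlapped with vehicle. Its log2 difference was 1.17 after pan (SE 0.69, limma adjusted p = 0.542) and 1.30 after C1 (SE 0.56, limma adjusted p = 0.452).

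Of 13 Th2-associated genes, Arg1 alone was above background in every sample of all groups, with 2772 to 4392 normalized counts over the 11 samples. It encodes arginase, which alternatively activated macrophages make under IL-4 and which other cells make as well. Retnla, another gene of such macrophages, was above background in every C1 sample. Of 9 Th17-associated genes, Stat3, which acts below the receptors of IL-6 and IL-23, was above it in every sample (3441 to 4768), and Il23r, the receptor chain for IL-23, in every vehicle sample. By limma, 0 genes of these lists were called in a comparison with vehicle. At an unadjusted p under 0.05, which 12.5% of all genes reached in pan and 10.5% in C1, there was 1 gene of each list in pan (Ccr4 and Il22), and in C1 1 of the Th2 list (Ccr4) and 3 of the Th17 list (Csf2, Cxcl5 and Il22). The receptor chain of IL-10, Il10rb, was measured at 869 to 1001 normalized counts in vehicle, 876 to 1237 in pan and 988 to 1301 in C1, and differed from vehicle by 0.15 (SE 0.22) after pan and 0.25 (SE 0.14) after C1.

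**Figure D4:**
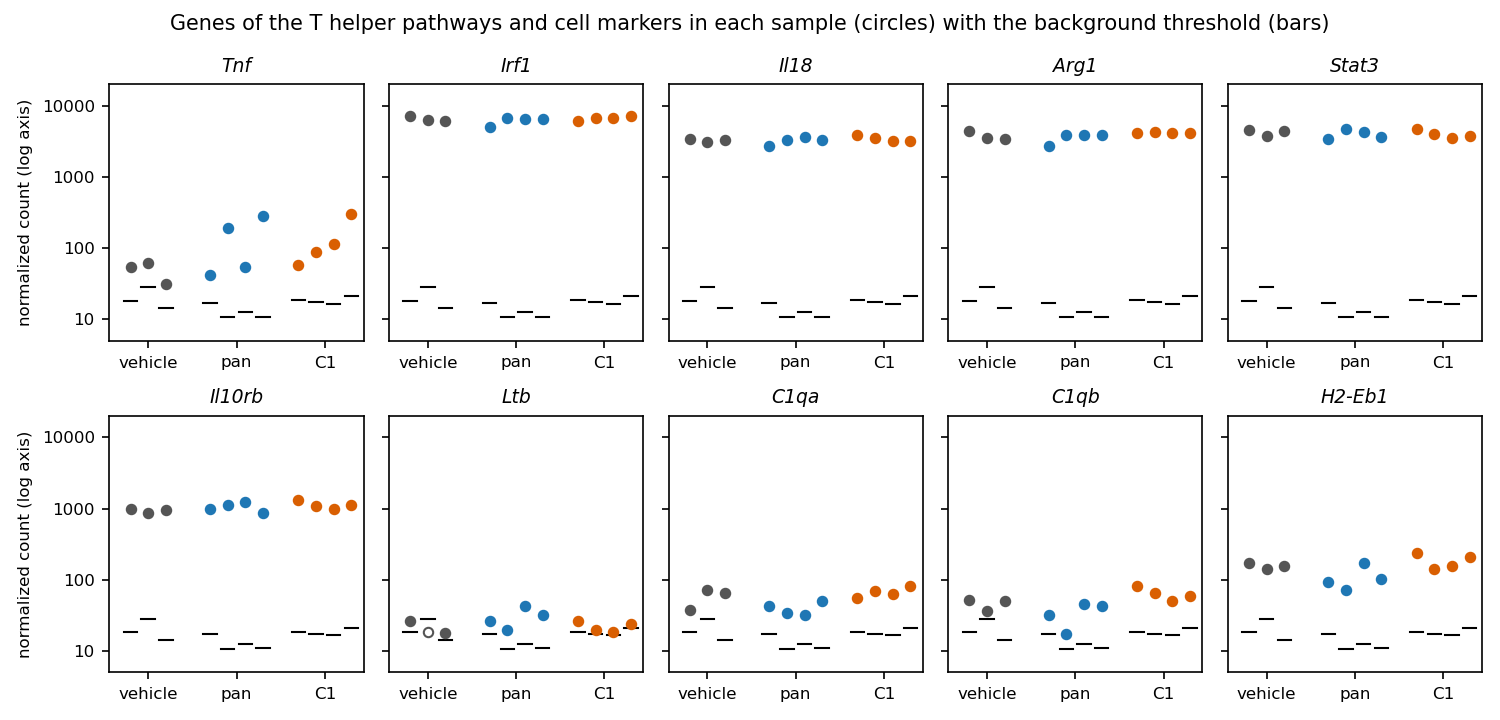
Normalized count (log axis) of genes linked to the T helper pathways and of cell markers in the 3 vehicle, 4 pan and 4 C1 samples, replicates in order within a group. Circles filled in colour are above the sample's background threshold (black bars): all are except 1 vehicle value of Ltb, and Irf1, Il18, Arg1 and Stat3 lie at 2726 normalized counts or above in every sample.

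Markers of the cells that make these cytokines were read from lists as well. Of 7 lymphocyte markers, Cd4, Cd40lg, Il2, Lta, Ccr7 and Fasl were not above background in every sample of any group. Of the 7, 4 had a negative and 3 a positive log2 difference from vehicle in pan, and 2 and 5 in C1. Ccr7 and Cd4 had all pan samples below all vehicle samples, as 8.47% of all genes did. Cd40lg, the CD40 ligand of activated T helper cells, went the other way from Cd4 while staying below the threshold in all 11 samples. It was at 6.01, 2.30 and 3.29 normalized counts in vehicle (3, 1 and 2 probe counts, all within what a count of 0 allows), at 6.49, 7.32, 11.6 and 6.92 in pan and at 6.88, 6.31, 6.71 and 7.34 in C1. The pan samples had 2, 3, 4 and 22 probe counts, the first 2 of them also within what a count of 0 allows. All pan and all C1 samples were above all vehicle samples, a pattern of 2.42% of all genes in pan and 6.05% in C1, and of 0 of the 10 T helper genes. The log2 difference was 1.14 after pan (SE 0.37, limma adjusted p = 0.239) and 0.93 after C1 (SE 0.31, limma adjusted p = 0.418), so it was not called. With each sample centred on the reference genes it was called in pan (2.03, limma adjusted p = 0.0257) and not in C1 (1.23, limma adjusted p = 0.237). Ltb, a lymphotoxin chain of lymphocytes, was above it in 2 of 3 vehicle samples and in all pan and C1 samples, at 18.1 to 43.5 normalized counts. The summed level of the 7 was 59.2 to 66.8 in vehicle, 48.7 to 72.4 in pan and 58.2 to 75.2 in C1. Of 9 myeloid markers, C1qa, C1qb, C3ar1, Mrc1 and Tyrobp were above background in every sample, and the list summed to 238 to 375 in vehicle, 178 to 238 in pan and 276 to 391 in C1. The MHC class II gene H2-Eb1 of antigen-presenting cells was at 141 to 174, 70.8 to 174 and 140 to 241. Neither list held a gene called by limma against vehicle, and C3ar1 had the smallest p of the myeloid list in pan (log2 difference -1.18, SE 0.29, limma adjusted p = 0.0955). The neutrophil receptors Cxcr1 and Cxcr2 were not above background in every sample of any group. The panel holds no keratin gene, so the epithelial label could not be checked by such a marker.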

How the data were processed

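RNA from 11 cornea samples was measured on a NanoString panel of 248 genes. Per the authors' methods, ROSALIND scaled each lane by its housekeeping probes (geometric mean), and samples that failed quality control had been removed. The authors deposited log2 normalized counts, in 1 table for each treatment, and both repeat the vehicle samples with identical values. Columns of the authors' own comparison (a mean, a fold change and its p and adjusted p) were not used. The housekeeping genes were not used here, so this step was not repeated. No genome build is named, and no coordinates are given. The labels do not say how many mice a sample holds, so p-values measure the spread between samples, which may in part be technical. For values at 1 probe count, that spread is only what 1 count was worth in each sample.

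Probe counts were recovered from the step of each sample (100% of 2728 values within 0.01 of a whole number). Each comparison was fitted with limma 3.58.1 (lmFit, eBayes) in R 4.3.3 on the deposited log2 values of all 248 genes, with the 2 groups compared, no covariate, filter or pseudocount, and Benjamini-Hochberg adjustment at 0.05. Exact permutation tests of the difference of means were two-sided (scipy 1.17.1, Python 3.11.15). Intervals of pooled counts are exact at 95%. The fits were tested on simulated data. Figures used matplotlib 3.10.9 and tables pandas 2.3.3 and numpy 2.4.6. Of the gene IDs, 247 were found in RefSeq's gene table.

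All 10 genes are named. Further genes come from fixed lists, by counts, with values for those called or, if above background in every sample of a group, with the smallest p of their list. Cd40lg, Il10rb, H2-Eb1 and other list genes with levels were added after their values were seen, as was the comparison with Mbl2. Genes and lists were chosen with earlier results of these data known. Alternatives were 1 fit of all groups, a prior variance that depends on the mean, median centring, a pseudocount of 10, only genes whose mean log2 value reached 5, background subtraction, voom weights, total count or age label as a covariate, a replicate block, leaving out each sample, and other background thresholds. Centring on the reference genes was chosen after seeing the data. One reference gene, which stays in the threshold and in counts, and 1 gene of the Th1-associated list are not reported here by name. DESeq2 was planned only for raw counts and was not run.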

Additional observations from a re-analysis of the deposited data

Results flagged for a closer look

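Il12a in pan replicate 2 stood apart from the other pan samples, with a log2 value of 3.287 where the others were at 1.53 to 1.70. It rested on 4 probe counts, and the other pan samples had 1 to 10 counts at other depths. Of 20 sets of 4 samples tested for such a value (10 genes in 2 groups), 1 was marked, and chance marks about 1 of 20.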

How the results depend on the processing

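Of 223 values of the 10 genes under alternatives that leave out no sample, 200 kept their direction and their side of the threshold. The call of Ifng in pan against vehicle was kept in 16 of 17 alternatives (log2 difference -2.58 to -0.98, limma adjusted p up to 0.0410) and lost with background subtracted, where 0 genes of the 10 were called. The count of called genes rose from 1 to 2 (Ifng and Cd4) in 1 fit of all 3 groups, with the log2 total count or the second age label as a covariate, and with the replicate block, with limma adjusted p = 0.0452, 0.0173, 0.0294 and 0.0477 for Cd4 (log2 difference -1.68, -1.78, -1.93 and -1.93). Leaving out each sample, 1 gene was called in pan and 0 in C1 against vehicle and in C1 against pan. Replicate numbers do not pair the samples: the correlations of same-numbered deviations were -0.07 to 0.09 between pan and vehicle, -0.17 to 0.15 between C1 and vehicle and -0.06 to 0.26 between C1 and pan.

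Directions that turned concerned genes at background. In pan against vehicle, centring on the reference genes gave 0.44 for Il12a, 0.66 for Il12b, 0.42 for Il17a and 0.35 for Il5. Background subtraction gave 0.53 for Il12a, 0.69 for Il17a and 0.53 for Il5. The pseudocount gave -0.0099 for Il4 and -0.051 for Il10, voom weights -0.17 for Il4, and the age covariate and the replicate block -0.047 each for Il10. In C1 against vehicle, the age covariate gave 0.16 for Il12a and -0.030 for Il10, centring on the reference genes 0.061 for Il12b and 0.052 for Cd4, the pseudocount -0.0019 for Il4 and voom weights -0.14 for Il4. The age covariate rests on pan replicate 4 alone, the only sample whose label differs from the rest of its group. Those fits therefore cannot separate the label from treatment in C1. Leaving out each sample, the pan differences spanned -0.65 to 0.45 for Il12b, -0.35 to 0.58 for Il4 and -0.79 to 0.51 for Il10. The C1 differences spanned -1.11 to 0.038 for Il12a, -0.65 to 0.45 for Il12b, -0.82 to 0.22 for Il17a, -0.25 to 0.69 for Il4, -0.46 to 0.85 for Il10 and -0.57 to 0.036 for Cd4. The cause was not tested.

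Genes above background in at least 1 vehicle sample numbered 0 at a threshold of the mean plus 3 SD, 2 (Ifng and Il13) at the highest reference gene and 0 at 20 normalized counts, and 0 to 1 without single samples. In pan they numbered 1 (Il23a) at the mean plus 3 SD and at 20 normalized counts, and 1 to 3 without single samples. The genes whose mean log2 value reached 5 include none of the 10, so that alternative gave no value. Genes at the floor in both groups got none with background subtracted. At 1 to 31 probe counts per value, the depth limits all values here.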

Other observations

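Il12b and Il17a had the same probe count in all 4 pan samples (2, 5, 1 and 19), and in 5 of 11 samples in all. This was the highest number of shared counts among the 45 pairs of the 10 genes.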
